A study of Mus musculus with 36 samples.

Results

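Lysosomes are the acidic compartments in which cells break down proteins, lipids, glycans and whole organelles. A proton pump, the V-ATPase, acidifies their lumen, soluble hydrolases digest the cargo, and membrane proteins shield the boundary and export the products. Many of these genes carry an E-box in their promoters that is bound by TFEB, TFE3 and MITF, related transcription factors which the kinase complex mTORC1 holds in the cytoplasm of well-fed cells. In B-lineage cells the compartment is also where antigen is cut for presentation on MHC class II.

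The genes described here were a list of 37 lysosome genes, taken by symbol from the deposited table, and 32 of them were among its 12762 genes. Cd63, Ctsh, Ctsl, Hexa and Gaa were not analysed here. Genes were taken without a threshold on expression, but the list itself was chosen with earlier results of these data known. The 32 genes comprised Tfeb, Tfe3 and Mitf, and then membrane proteins, proteases, glycosidases, lipid-handling proteins and cofactors, and proton pump subunits.

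Strand-specific mRNA-seq profiled 36 cultures of B3, a mouse pre-B cell line. Ikaros cells carried a retroviral vector (MSCV) with HA-tagged wild type Ikaros fused to the ERt2 hormone-binding domain, followed by IRES and GFP, and Control cells carried the same vector with ERt2 but no Ikaros. Both lines were sampled at 0, 2, 6, 12, 18 and 24 h with n = 3 in each of the 12 groups, in repeated cultures of one GFP-sorted population per line. The labels give 0.5 uM of 4-OHT (hydroxytamoxifen), the drug that moves the fusion protein to the nucleus, for every library, whereas the study's methods describe the 0 h cells as drug-free and collected on occasions of their own, so a comparison with 0 h also compares occasions. Replicates 1, 2 and 3 were batches 1, 2 and 4 at 0 h and batches 1, 3 and 4 later.

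Values are log2 expression after the authors' correction for GC content, gene length and library preparation, plus a constant, so differences are in log2 units and levels are not counts. Sequencing depth is unknown from them. They are relative to the other genes of a library, and in bulk RNA fewer cells of one kind and less RNA per cell cannot be told apart. Library medians lay between 11.70 and 11.73. Ikzf1, the gene of Ikaros, read 13.95 to 14.85 in the Control libraries and 19.63 to 20.93 in the Ikaros libraries, so the line labels held in every library. All 12 genes of a pre-B marker list were present, with a summed level of 19.30 to 19.72 (log2) in Control and 19.01 to 19.90 in Ikaros libraries. The sum hides differences of single genes. At 24 h 8 were called higher and 2 lower (limma, adjusted p under 0.05), beside 31.0% and 31.9% of all genes. Rag1 was higher by 5.19 and Igll1 lower by -3.96. At 0 h 2 were already higher and 2 lower, beside 4.61% and 3.72%, with differences from -1.18 to 5.31. Macrophages are rich in lysosomes, and of 13 myeloid markers 4 (Lyz2, Itgam, Fcgr1 and Mrc1) were present, with a summed level of 11.23 to 11.89 in Control and 11.03 to 12.18 in Ikaros libraries, while the defining markers Csf1r, Cd14 and Mpo were not analysed here. At 24 h Itgam was higher in Ikaros cells by 4.24, and Lyz2, Fcgr1 and Mrc1 were lower by -2.94, -1.18 and -0.58 (limma, adjusted p 1.39e-07, 4.96e-05, 5.24e-07 and 0.0252), whereas at 0 h Lyz2 was higher in Ikaros cells by 2.94. Their part in the results was not tested.

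The E-box that TFEB, TFE3 and MITF bind has the core CACGTG, and its longer form TCACGTGA contains that core. Promoter windows of 300 bases, from 250 before to 50 after the annotated start (RefSeq, GRCm38.p6), were found for 28 of the 32 genes and for 8586 genes of the table, and a gene with several annotated starts counted once if any of its windows held the motif. Both motifs read the same on either strand. CACGTG occurred in 9 of the 28 lysosome genes (32.1%) and in 11.9% of the 8586 genes, and TCACGTGA in 7 (25%) and 2.4%. The 7 genes were Mcoln1, Cln3, Ctsa, Ctsd, Gla, Atp6v0d1 and Atp6v1a. TGGGAA, a core of Ikaros binding, searched on both strands, occurred in 4 of the 28 (14.3%), namely Tfeb, Neu1, Man2b1 and Atp6v1a, and in 26.0% of the 8586 genes. A match describes these letters alone and is no evidence of binding. To show where the motif lies in genes that rose, the windows of the 4 genes with TCACGTGA and the largest differences at that time are printed 5′ to 3′, with that motif in capitals. They lie at chr8:105566015-105566314 (Atp6v0d1, reverse strand), chr16:44139210-44139509 (Atp6v1a, reverse), chr2:164833523-164833822 (Ctsa, forward) and chr7:142387778-142388077 (Ctsd, reverse).
Atp6v0d1: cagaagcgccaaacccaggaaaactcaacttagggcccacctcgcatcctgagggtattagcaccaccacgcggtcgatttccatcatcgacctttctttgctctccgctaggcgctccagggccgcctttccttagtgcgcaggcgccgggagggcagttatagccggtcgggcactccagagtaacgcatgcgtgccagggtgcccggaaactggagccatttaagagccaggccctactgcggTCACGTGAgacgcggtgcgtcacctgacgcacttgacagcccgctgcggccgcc
Atp6v1a: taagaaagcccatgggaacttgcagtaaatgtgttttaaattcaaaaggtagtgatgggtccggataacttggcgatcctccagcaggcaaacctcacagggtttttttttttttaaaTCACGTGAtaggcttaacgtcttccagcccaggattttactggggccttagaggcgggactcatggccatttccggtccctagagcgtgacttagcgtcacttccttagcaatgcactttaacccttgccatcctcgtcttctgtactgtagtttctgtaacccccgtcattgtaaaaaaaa
Ctsa: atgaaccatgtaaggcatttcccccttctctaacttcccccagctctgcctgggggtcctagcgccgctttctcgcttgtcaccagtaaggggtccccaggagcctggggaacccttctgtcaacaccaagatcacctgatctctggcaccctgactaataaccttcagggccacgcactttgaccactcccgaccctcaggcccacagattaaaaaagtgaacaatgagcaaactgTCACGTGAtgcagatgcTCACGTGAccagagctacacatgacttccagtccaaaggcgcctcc
Ctsd: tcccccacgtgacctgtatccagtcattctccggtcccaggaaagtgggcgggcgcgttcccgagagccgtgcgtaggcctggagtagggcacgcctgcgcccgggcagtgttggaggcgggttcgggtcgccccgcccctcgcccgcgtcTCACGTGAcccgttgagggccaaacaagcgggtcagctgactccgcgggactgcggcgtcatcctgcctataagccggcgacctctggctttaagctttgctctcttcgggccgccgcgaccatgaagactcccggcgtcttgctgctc
The motif begins 4 bases before the annotated start in Atp6v0d1, 132 before it in Atp6v1a and 99 before it in Ctsd. The printed Atp6v1a window lies inside the gene as GENCODE M21 annotates it, from 44085402 to 44139705, so its start is not the outermost one. Ctsa holds the motif at 13 bases before and again at 4 bases after the start of the printed window's transcript. The window of another annotated start of Ctsa, chr2:164832622-164832921, holds neither E-box form. Cln3 too has a window without either, chr7:126585768-126586067. At 24 h the genes with TCACGTGA comprised 5 that were higher in Ikaros cells and 2, Cln3 and Gla, that were not called, and the 21 genes without it comprised 14 higher, 6 lower and 1 not called. Of all genes 31.0% were called higher and 31.9% lower at that time.

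Most lysosome genes were more highly expressed in Ikaros than in Control cells by the end of the course. At 24 h, 22 of the 32 were called higher (68.8%) against 31.0% of all genes, and 6 were called lower (18.8%) against 31.9% of all genes (limma over all genes, Benjamini-Hochberg adjusted p under 0.05). The lower count was 4 without replicate 1 and with only the 24 h groups fitted, and 3 without replicate 2, where Tfe3, Ctsz and Glb1 lost their calls. The median difference was 0.74 over the 32 genes and -0.01 over all genes. Differences of at least 2-fold were called upward in 10 genes and downward in 2, against 16.2% and 16.5% of all genes. In 22 genes the 3 Ikaros libraries all lay above the 3 Control libraries (35.0% of all genes did), and in 5 all lay below (36.1% of all genes). All 28 called genes had the same sign of difference within each of batches 1, 3 and 4.

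**Figure D1:**
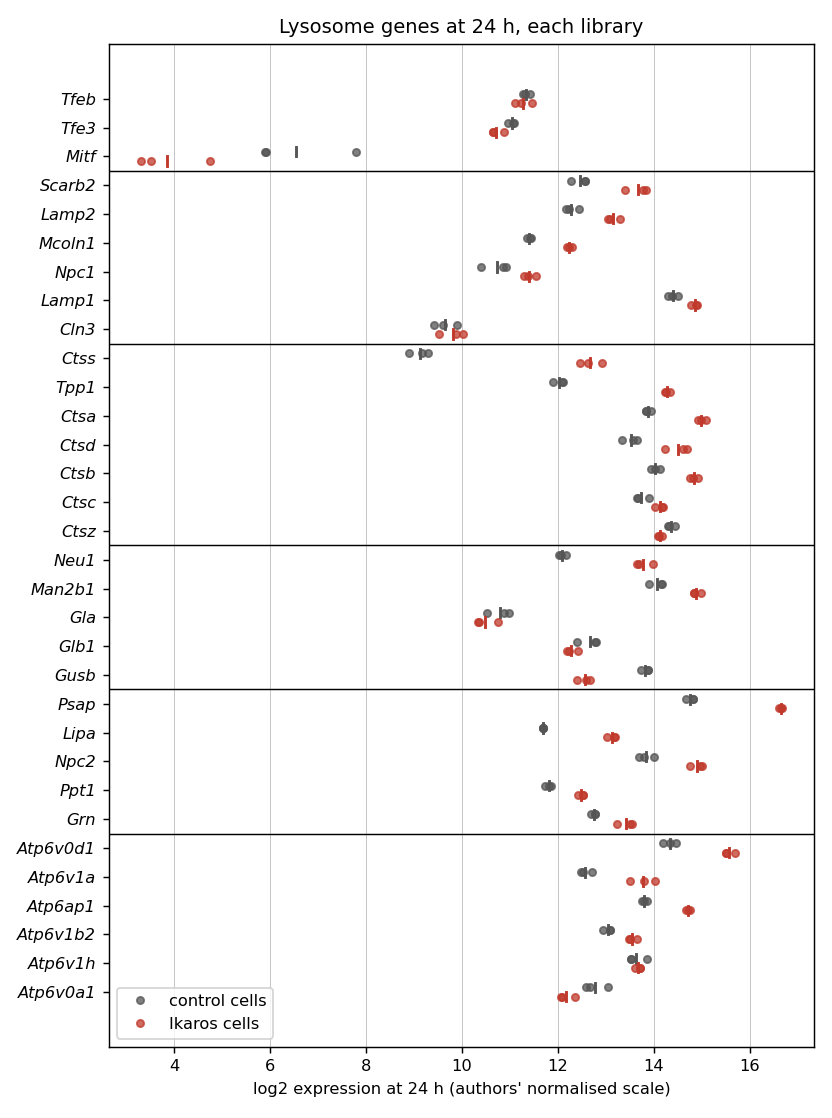
Log2 expression at 24 h (x axis, authors' normalised scale) of the 32 lysosome genes (y axis, grouped by role), with a point for each of the 3 libraries per line and a tick at the mean, Control in grey and Ikaros in red. Red lies to the right of grey without overlap for 22 genes, most widely for Ctss, and to the left for 5, among them Gusb.

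The rise built up over the course. At 0 h, 2 of the 32 genes were called higher, with 4.61% of all genes, and 0 were called lower, with 3.72% of all genes (4 genes had an unadjusted p under 0.05 downward). With the collection occasion as a replicate block the 0 h calls numbered 4, Ctsb and Lipa being added (adjusted p 0.0415 and 0.0231). At 2 h, 5 were higher and 2 lower, when 9.18% and 9.88% of all genes were called. At 6 h, 11 were higher and 6 lower, beside 18.1% and 19.2% of all genes. By 12 h, 15 were higher and 2 lower, beside 23.0% and 22.8%, and by 18 h, 21 were higher and 4 lower, beside 29.0% and 29.2%. The counts before 12 h were the least stable. Without replicate 1, without replicate 2, and with only the compared groups fitted, 3 genes were called at 2 h in each case in place of 7. Over all genes these fits called 7.54%, 6.30% and 6.74% at 2 h in place of 19.1%. At 6 h they called 10, 11 and 8 of the 32 genes in place of 17, and 20.7%, 21.2% and 16.8% of all genes in place of 37.3%. At 0 h none of the 32 was called without replicate 1 or without replicate 2, where 3.39% and 2.49% of all genes were called in place of 8.33%.

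Among the 22 genes higher at 24 h, the first upward call came at 0 h for Ctss and Psap and at 2 h for Lamp1, Ctsb and Neu1. It came at 6 h for Scarb2, Tpp1, Man2b1 and Atp6v1a, and at 12 h for 7 genes, Mcoln1, Ctsa, Ctsc, Lipa, Ppt1, Atp6v0d1 and Atp6ap1. Lamp2, Ctsd, Npc2, Grn and Atp6v1b2 followed at 18 h and Npc1 at 24 h. The Control means of Scarb2 and Atp6v1a at 6 h, 11.94 and 12.23, were their lowest of the course. Their Ikaros means at 6 h were 12.58 and 12.79, against 12.80 in both genes at 0 h. Neither gene was called at 12 h. The median difference of these 22 genes, whose direction the choice fixes, went from 0.09 at 2 h through 0.26 and 0.49 to 0.98 at 18 h, and was 0.95 at 24 h. Without replicate 1 the 2 h calls of Lamp1, Ctsb and Ctss were lost (adjusted p 0.303, 0.107 and 0.0871), at differences of 0.30, 0.42 and 0.83. Those of Lamp1 and Ctsb were also lost without replicate 2 (limma, adjusted p 0.189 and 0.270). With only the compared groups fitted they were lost too (adjusted p 0.245 and 0.204), and that of Ctsb without replicate 3 (adjusted p 0.110). Ctsb differed by 0.41 at 0 h and at 2 h alike. With the collection occasion as a replicate block the first call came earlier for Ctsb and Lipa, at 0 h as given above, and for Atp6ap1, at 2 h (adjusted p 0.0157), Ppt1, at 6 h (adjusted p 0.0351), Lamp2, at 12 h (adjusted p 0.0214), and Npc1, at 18 h (adjusted p 0.00543).

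**Figure D2:**
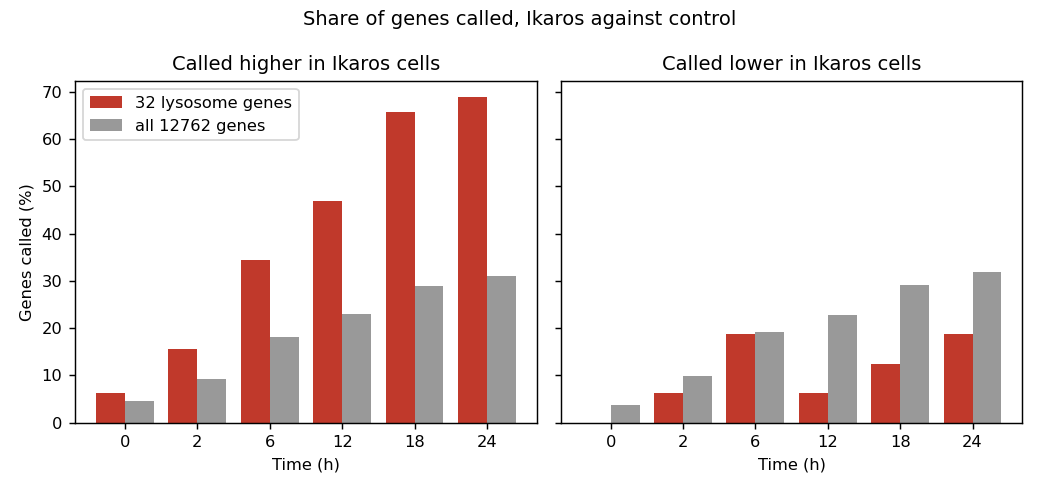
Share of genes (y axis, percent) called higher (left) or lower (right) in Ikaros than in Control cells at each time (x axis, hours), for the 32 lysosome genes in red and all 12762 genes in grey. The red bar reaches 68.8% against 31.0% at 24 h for higher genes, and for lower genes 18.8% against 31.9% at the same time.

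Control cells moved little. Over the 6 times the group means of a gene spanned 0.09 to 1.82 in Control, with a median of 0.28, and 0.18 to 2.53 in Ikaros cells, with a median of 1.09. The Control span stayed under 0.5 in 26 of the 32 genes, and the widest was that of Mitf. From 2 h to 24 h, times that share their batches, 0 of the 32 genes were called in Control cells in either direction, where 0.251% of all genes rose and 0.204% fell (limma; unadjusted p under 0.05 in 2 genes upward and 1 downward, smallest adjusted p 0.117). In Ikaros cells 22 rose and 3 fell between the same times, against 30.2% and 30.4% of all genes. The difference between the lines itself moved upward from 2 h to 24 h in 20 genes and downward in 4, Tfeb, Mitf, Ctsz and Gusb (23.3% and 24.0% of all genes). Measured from 0 h, it changed upward in 19 and downward in 5 (24.2% of all genes in each direction). The downward count was 1, Gusb, without replicate 1 and 2 without replicate 2.

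**Figure D3:**
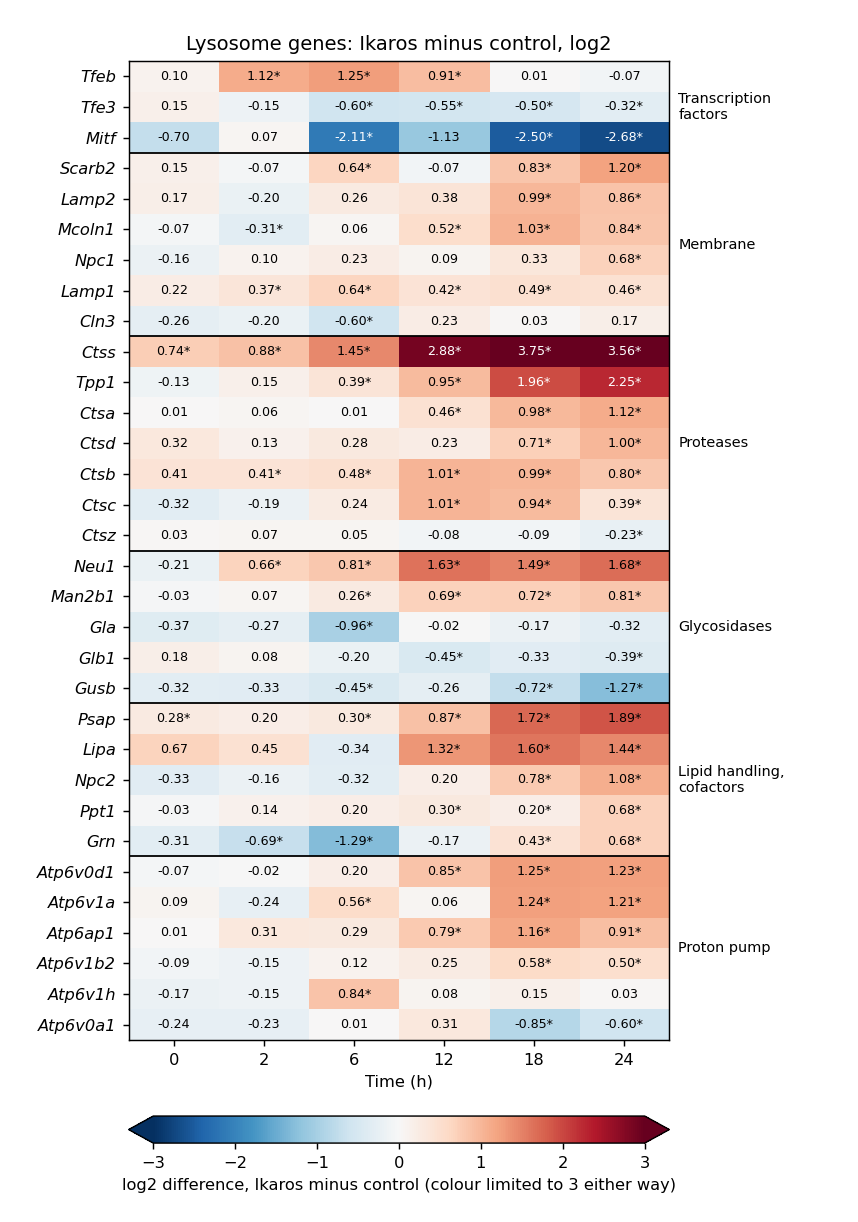
Log2 difference between Ikaros and Control cells (colour and printed value, red higher in Ikaros) for each lysosome gene (rows, grouped by role) at each time (columns, hours), with an asterisk where the adjusted p was under 0.05. Red spreads from 12 h through the proteases, the lipid-handling genes and the proton pump. Mitf and Gusb, already below Control at 0 h without a call, are bluest at 24 h, and Tfeb has asterisks only from 2 to 12 h.

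The 3 transcription factors followed courses of their own. Tfeb (chromosome 17, 47737030 to 47792419, forward strand) began alike in the lines, at 11.07 ± 0.10 in Control and 11.17 ± 0.06 in Ikaros at 0 h (SD, n = 3). Its 2 h levels were 11.38 ± 0.16 and 12.50 ± 0.33 (SD, n = 3), a difference of 1.12 (limma, SE 0.14, adjusted p 1.27e-06), or 2.17-fold. Within batches 1, 3 and 4 the difference amounted to 0.80, 1.16 and 1.41. It was 1.25 at 6 h and 0.91 at 12 h (adjusted p 9.31e-08 and 5.66e-06), and was then no longer called. At 24 h Tfeb read 11.32, 11.28 and 11.43 in Control batches 1, 3 and 4 and 11.46, 11.24 and 11.11 in Ikaros. The groups overlapped, with a difference of -0.07 (95% interval -0.36 to 0.22, adjusted p 0.673). The difference fell by 1.19 between 2 h and 24 h (SE 0.20, adjusted p 1.76e-05). Tfeb was thus highest in Ikaros cells at 6 h, whereas 18 of the 32 genes had their highest Ikaros mean at 24 h.

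Tfe3, on chromosome X, was lower in Ikaros cells from 6 h. Its difference was -0.60 at 6 h (SE 0.11, adjusted p 0.000127) and -0.32 at 24 h (SE 0.11, adjusted p 0.0149). At 24 h it read 11.09, 10.96 and 11.08 in Control and 10.64, 10.65 and 10.88 in Ikaros batches 1, 3 and 4, so the groups did not overlap. The 24 h call was lost without replicate 1 (adjusted p 0.231) and without replicate 2 (adjusted p 0.0707). Mitf was the scarcest of the 32 genes, with a mean of 5.03, below 99% of the genes of the table. It read 5.91, 5.89 and 7.79 in Control and 4.74, 3.52 and 3.31 in Ikaros at 24 h, a difference of -2.68 (SE 0.52, adjusted p 7.12e-05). The 6 values did not overlap but spread widely, and the differences within batches 1, 3 and 4 ran from -1.18 to -4.49. Without replicate 3, which holds the Control value of 7.79, the difference was -1.77 (adjusted p 0.0113). Control cells had a higher Mitf mean at 24 h than at 2 h, by 1.82 without a call (adjusted p 0.117). At 0 h the difference between the lines was -0.70, also without a call (limma, adjusted p 0.526).

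**Figure D4:**
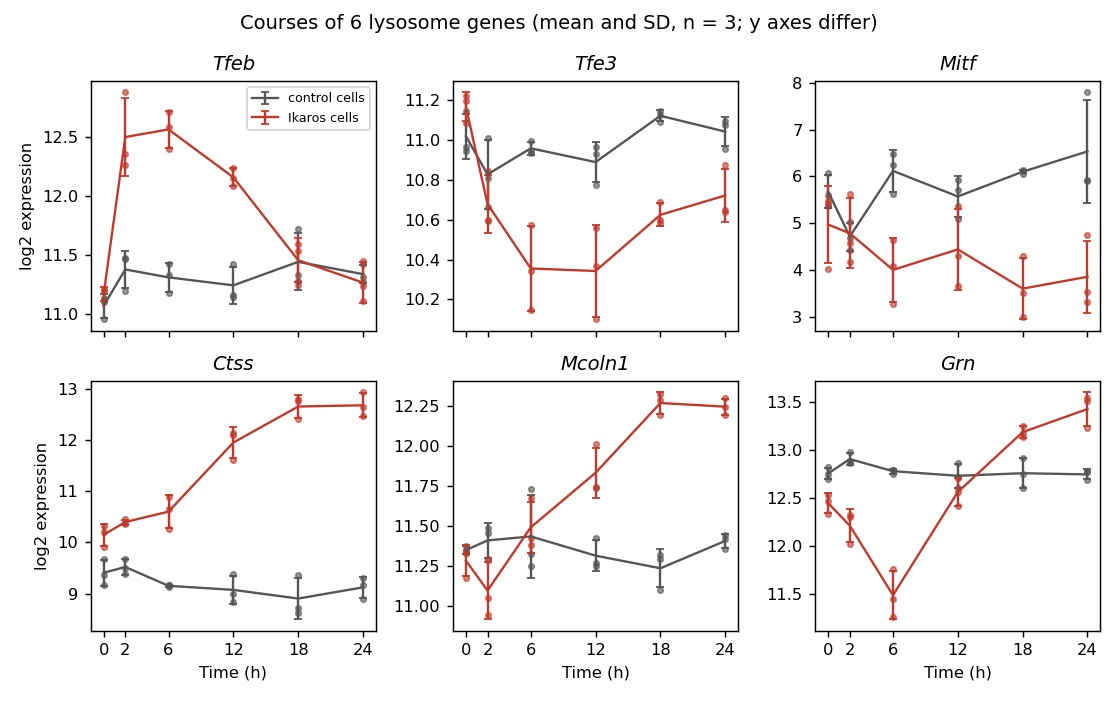
Log2 expression (y axes, which differ between panels) over time (x axes, hours) for Tfeb, Tfe3, Mitf, Ctss, Mcoln1 and Grn, with a point per library and lines through the means with SD (n = 3), Control in grey and Ikaros in red. Tfeb in Ikaros cells rises to 12.57 at 6 h and returns to 11.27, Ctss climbs to 12.68, and Grn dips to 11.49 at 6 h before it crosses the Control line.

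Proteases held the largest rises, with 6 of the 7 measured genes higher at 24 h and 1 lower (31.0% and 31.9% of all genes). Ctss (chromosome 3, 95526786 to 95556403, forward strand) encodes cathepsin S, the cysteine protease that trims the invariant chain of MHC class II. It read 9.30, 9.16 and 8.90 in Control and 12.64, 12.47 and 12.93 in Ikaros batches 1, 3 and 4 at 24 h. The Ikaros libraries lay far above, by 3.56 (SE 0.20, adjusted p 1.65e-14), or 11.8-fold. Ctss was already higher by 0.74 at 0 h (adjusted p 0.0151), and its difference grew by 2.81 from 0 h to 24 h (SE 0.28, adjusted p 4.04e-09). Tpp1 (chromosome 7, 105744811 to 105752235, reverse strand) encodes tripeptidyl peptidase, a serine protease whose loss causes a childhood neuronal ceroid lipofuscinosis. It read 12.09, 12.10 and 11.89 in Control and 14.34, 14.26 and 14.24 in Ikaros at 24 h. The difference of 2.25 (SE 0.12, adjusted p 1.11e-14), or 4.77-fold, was not preceded by one at 0 h, where it was -0.13.

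The other proteases differed by less at 24 h. Ctsa, the carboxypeptidase that stabilises neuraminidase, was higher by 1.12, the aspartic protease Ctsd by 1.00 and the cysteine protease Ctsb by 0.80 (adjusted p 3.88e-11, 7.44e-07 and 1.51e-05). Ctsc, which activates granule serine proteases, peaked earlier. It was higher by 1.01 at 12 h (adjusted p 2.81e-07) and by 0.39 at 24 h (adjusted p 0.00883), the latter call being lost without replicate 1 (adjusted p 0.140). Ctsz, a carboxypeptidase, was lower by -0.23 (adjusted p 0.00227). The difference was also -0.23 without replicate 2 and with only the 24 h groups fitted, but the call was lost (adjusted p 0.0819 and 0.0638).

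Lipid-handling genes and cofactors were higher without exception at 24 h, all 5 being called (31.0% of all genes were called higher). Psap (chromosome 10, 60277627 to 60302597, forward strand), the precursor of the saposins that present sphingolipids to hydrolases, had the highest mean level of the 32 genes on this length-corrected scale, 15.28. It read 14.82, 14.81 and 14.66 in Control and 16.68, 16.65 and 16.62 in Ikaros batches 1, 3 and 4 at 24 h, 1.89 higher (SE 0.08, adjusted p 1.14e-16), or 3.70-fold. At 0 h the difference was 0.28 (adjusted p 0.0287). Lipa, lysosomal acid lipase, read 11.70, 11.69 and 11.69 in Control and 13.17, 13.19 and 13.04 in Ikaros, 1.44 higher (SE 0.23, adjusted p 5.13e-06). The change of Lipa from 0 h to 24 h, 0.77, just missed the threshold (adjusted p 0.0529) and passed it with the replicate block (adjusted p 0.0198), the filter on low values, trend and robust eBayes, only the compared groups, and without replicate 3 (adjusted p 0.000482 to 0.0441 in the last 4). Npc2, which binds cholesterol in the lumen, was higher by 1.08 and the thioesterase Ppt1 by 0.68 (adjusted p 5.10e-08 and 4.35e-08).

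Grn, progranulin, went first down and then up. It was lower in Ikaros cells by -0.69 at 2 h (SE 0.11, adjusted p 5.43e-05) and by -1.29 at 6 h (adjusted p 1.29e-09), at 11.49 ± 0.25 against 12.78 ± 0.03 in Control (SD, n = 3). By 24 h it was higher by 0.68 (adjusted p 7.80e-06), reading 12.77, 12.79 and 12.69 in Control and 13.51, 13.55 and 13.23 in Ikaros batches 1, 3 and 4. Between 2 h and 24 h the difference changed by 1.38 (SE 0.16, adjusted p 7.56e-08). Control means spanned 0.17 over the whole course and were highest at 2 h, at 12.91. The larger moves, the dip to 11.49 at 6 h and the rise after it, were in the Ikaros cells.

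Of the 5 glycosidases, 2 were higher and 2 lower at 24 h, shares near those of all genes (31.0% and 31.9%). Neu1 (chromosome 17, 34931253 to 34935953, forward strand), the sialidase that removes terminal sialic acid, was one of the early genes, higher by 0.66 at 2 h (SE 0.15, adjusted p 0.00192). That early call was lost without replicate 2 (adjusted p 0.125) and with only the 2 h groups fitted (adjusted p 0.0650). At 24 h Neu1 read 12.03, 12.07 and 12.17 in Control and 13.69, 13.65 and 13.99 in Ikaros batches 1, 3 and 4, 1.68 higher (SE 0.15, adjusted p 1.57e-10), or 3.21-fold. The alpha-mannosidase Man2b1 was higher by 0.81 (adjusted p 1.84e-08).

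Gusb (chromosome 5, 129989011 to 130003049, reverse strand), the beta-glucuronidase, moved against the majority. At 0 h it already stood lower in Ikaros cells, without a call, at 13.63 ± 0.14 against 13.95 ± 0.12 in Control (SD, n = 3). At 24 h it read 13.74, 13.87 and 13.87 in Control and 12.41, 12.60 and 12.67 in Ikaros, a difference of -1.27 (SE 0.14, adjusted p 7.69e-09). After Mitf this was the most negative difference between the lines at 24 h among the 32 genes. The beta-galactosidase Glb1 differed by -0.39 (adjusted p 0.0418), which failed the threshold without replicate 1 (adjusted p 0.134), without replicate 2 (adjusted p 0.399) and with only the 24 h groups fitted (adjusted p 0.0551). Gla, the alpha-galactosidase, was called only at 6 h, by -0.96 (adjusted p 0.000502).

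Membrane proteins were higher for 5 of 6 genes at 24 h (31.0% of all genes were called higher). Scarb2, which carries glucocerebrosidase to the lysosome, read 12.58, 12.56 and 12.27 in Control and 13.83, 13.41 and 13.77 in Ikaros batches 1, 3 and 4. Its libraries were separated by 1.20 on average (SE 0.23, adjusted p 5.57e-05). Lamp2, a major glycoprotein of the boundary membrane, read 12.23, 12.44 and 12.18 in Control and 13.06, 13.09 and 13.29 in Ikaros, 0.86 higher (SE 0.16, adjusted p 3.82e-05). Its relative Lamp1 differed by 0.46 at 24 h (adjusted p 0.000581), but its Ikaros means stayed between 14.81 and 14.99 through the course, and the change of 0.24 from 0 h to 24 h was not called (95% interval -0.07 to 0.56, adjusted p 0.202).

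Mcoln1, the cation channel that releases lysosomal calcium, was lower by -0.31 at 2 h (adjusted p 0.0498) and higher by 0.84 at 24 h (SE 0.11, adjusted p 2.89e-07). The 2 h call was lost under quantile normalization, trend and robust eBayes, only the compared groups, and each fit that left out a replicate (adjusted p 0.0548 to 0.287). At 24 h it read 11.35, 11.42 and 11.44 in Control and 12.30, 12.24 and 12.20 in Ikaros batches 1, 3 and 4, with no overlap. Npc1, which exports cholesterol from the lumen, was higher by 0.68 at 24 h (adjusted p 0.000615). Cln3, the membrane protein mutated in juvenile Batten disease, was called only at 6 h, by -0.60 (adjusted p 0.0138), where Control stood at 10.01 ± 0.27 and Ikaros at 9.41 ± 0.21 (SD, n = 3). That Control mean was the highest of its 6 times.

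Of the 6 proton pump genes, 4 were higher, 1 was lower and 1 was not called at 24 h (31.0% of all genes were higher and 31.9% lower). Atp6v0d1, of the membrane sector, read 14.21, 14.34 and 14.47 in Control and 15.50, 15.69 and 15.50 in Ikaros batches 1, 3 and 4, 1.23 higher (SE 0.10, adjusted p 5.20e-11). Atp6v1a, the catalytic subunit of the cytosolic sector, read 12.53, 12.71 and 12.48 in Control and 14.04, 13.50 and 13.79 in Ikaros, 1.21 higher (SE 0.20, adjusted p 1.16e-05). Neither gene had overlapping groups. The accessory subunit Atp6ap1 was higher by 0.91 and Atp6v1b2, which lies beside the catalytic subunit, by 0.50 (adjusted p 3.01e-07 and 0.00286), and the call of Atp6v1b2 was lost without replicate 1 (adjusted p 0.0621).

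Atp6v0a1, a large subunit of the membrane sector, went the other way. It differed by -0.85 at 18 h and by -0.60 at 24 h (adjusted p 0.00721 at 24 h), and the latter call was lost without replicate 3 (adjusted p 0.0722). Atp6v1h, a regulatory subunit, was called only at 6 h, by 0.84 (adjusted p 0.000375). At that time Control stood at 12.97 ± 0.16, its lowest mean, and Ikaros at 13.82 ± 0.24 (SD, n = 3).

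Other genes of the pathway, in lists beside the 32, were read from the same fit at 24 h. Of 39 further hydrolases and their activators, 35 were in the table, 25 were higher and 4 lower, with a median difference of 0.60. At 0 h 7 of the 35 were already higher and 2 lower, beside 4.61% and 3.72% of all genes. The change from 0 h to 24 h was called upward in 18 and downward in 4, beside 24.2% of all genes in each direction. Smpd1, acid sphingomyelinase, had the largest upward difference at 24 h, 3.17 (SE 0.32, adjusted p 2.28e-09). Hyal2, a hyaluronidase, had the largest downward one, -1.31 (adjusted p 1.14e-09). Of 43 membrane and sorting genes 5 were higher and 0 lower at 0 h, and 22 were higher and 12 lower at 24 h. The 24 h extremes were the cystine exporter Ctns at 1.98 and the metal transporter Slc11a1 at -1.91 (adjusted p 7.88e-11 and 3.01e-12). Of 16 further genes listed with the pump, mostly subunits and regulators, 10 were higher and 1 lower at 24 h. The extremes were 1.69 for the pump regulator Wdr7 and -0.74 for Tm9sf1, which is no subunit of the pump (adjusted p 4.53e-05 and 9.34e-07).

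Autophagy genes, which deliver cargo to the lysosome, showed a like balance, with 24 of 38 higher and 5 lower and a median of 0.75. Plekhm1, an adaptor for fusion with lysosomes, was higher by 1.85 and Atg9b lower by -1.70 (adjusted p 9.01e-16 and 1.61e-10). The list around mTORC1, upstream of TFEB, was even, with 8 of 24 higher, 7 lower and a median of -0.09. In it Flcn, folliculin, was higher by 1.52 and its partner Fnip2 lower by -2.87 (adjusted p 1.50e-10 and 1.58e-06). These counts stand against the 31.0% of all genes that were higher and the 31.9% that were lower at 24 h.

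Exons of 2 of the 32 genes, Ctsd and Glb1, overlap another annotated gene on the same strand, and those of 9, among them Lamp1, Ctsa, Ctsb, Grn and Atp6v1h, overlap one on the opposite strand. The strand setting of the counting is not given in the sources used here, so the values of these genes may hold reads of the overlapping gene.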

How the data were processed

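Total RNA of 36 B3 cultures was sequenced as strand-specific, paired-end mRNA libraries. The authors trimmed the reads, aligned them to mm10 (TopHat2, single best alignment), counted per gene (HTSeq), normalised for GC and length (cqn) and removed library preparation effects (ComBat, non-parametric). Log2 is the scale of the deposited values, which carry an added constant, so that the lowest value of the table is 1; the base of the logarithm rests on cqn and is not stated in the table. Versions and strand setting are not given in the sources used here. No counts were used. The study states a target read depth, but the depth reached by each library is unknown here, and its effect on precision was not measured. The spread was estimated from 3 libraries per group. The correction made before deposition may make the standard errors too small.

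Groups were taken from sample titles. All 12762 genes were fitted together, each with its own mean per group (12 groups), by limma 3.58.1 under R 4.3.3. P-values are two-sided, adjusted by Benjamini-Hochberg across the whole table, and calls were made under 0.05. The script was tested on simulated data. At most 0.384% of values were identical between any pair of libraries. Values by library were printed for Tfeb, Tfe3, Mitf, for the 2 called genes with the largest absolute difference at 24 h in each other role, and for genes called in opposite directions at 2 h and 24 h. From each other list the largest called upward and downward differences at 24 h are named, and Fnip1 was added after its value was seen. The courses of Gla, Cln3, Atp6v1h, Lamp1 and Ctsc and the myeloid markers were described after their values were seen. The members and lists were chosen with earlier results of these data known. Positions come from GENCODE M21 (GRCm38, the build of mm10).

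The labels give the Control and Ikaros cultures of a batch one number, which pairs them. Deviations from the group means correlated between -0.06 and 0.51 over the 18 pairs (median 0.13, 12 above 0.1). Alternatives were the replicate block by collection occasion or by batch number, quantile normalization, dropping the genes under the 25th percentile of mean expression, trend and robust eBayes, only the compared groups, and leaving out each replicate.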

Additional observations from a re-analysis of the deposited data

Results flagged for a closer look

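The gap between the lines at 24 h was tested against the gap at 0 h, and 24 of the 32 lysosome genes are listed here because that test passed (limma, adjusted p under 0.05). The change was upward, in log2 units, by 2.81 for Ctss, 2.38 for Tpp1, 1.89 for Neu1, 1.61 for Psap, 1.41 for Npc2, 1.29 for Atp6v0d1, 1.11 for Atp6v1a, 1.11 for Ctsa, 1.05 for Scarb2, 0.99 for Grn, 0.91 for Atp6ap1, 0.90 for Mcoln1, 0.85 for Npc1, 0.83 for Man2b1, 0.72 for Ctsc, 0.71 for Ppt1, 0.69 for Lamp2, 0.68 for Ctsd and 0.59 for Atp6v1b2. It was downward with -1.97 for Mitf, -0.95 for Gusb, -0.57 for Glb1, -0.47 for Tfe3 and -0.26 for Ctsz. The 0 h cultures were collected on separate occasions, and the occasion and the time cannot be told apart in these values. From 2 h to 24 h, with the 0 h libraries left aside, 20 genes changed upward and 4 downward. Leaving out 1 replicate ended the 0 h to 24 h call of Tfe3, Lamp2, Ctsz, Glb1 and Atp6v1b2 (replicate 1 or 2, adjusted p 0.0711 to 0.376), of Scarb2 and Ctsd (replicate 1, adjusted p 0.127 and 0.0928) and of Mitf (replicate 1 or 3, adjusted p 0.0720 and 0.282), whose change was -1.04 without replicate 3. No group had over 3 libraries, so single libraries were not screened for outlying values.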

How the results depend on the processing

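No called difference of the 32 genes at 2 h or 24 h, and no called change from 0 h to 24 h, turned its direction under any alternative. At 24 h 276 of 286 refitted values kept their side of the threshold, and 10 lost it, in Tfe3, Ctsc, Ctsz, Glb1, Atp6v0a1 and Atp6v1b2. The replicate block by occasion added calls and removed none. It gave 4 genes at 0 h, as did the block by batch number, in place of 2. At 2 h it added Gusb, Psap and Atp6ap1 (adjusted p 0.0390, 0.0164 and 0.0157), and no call changed at 24 h. With only the compared groups fitted, 3 genes were called at 2 h in place of 7 and 8 at 6 h in place of 17. Leaving out each replicate gave 0 to 3 genes at 0 h, 3 to 7 at 2 h, 10 to 14 at 6 h, 24 to 27 at 24 h in place of 28, and 16 to 24 for the change from 0 h in place of 24. The total and upward counts at 12, 18 and 24 h and for the changes moved by no more than 1.5 times under the alternatives run, but small downward counts moved further, to 3 from 6 at 24 h without replicate 2, to 1 from 2 at 12 h without replicate 1 or 2 and to 4 without replicate 3, and to 1 from 5 for the change from 0 h without replicate 1. The filter on low values removed Mitf and Cln3. The alternatives for single genes at 2 h, for their changes from 0 h and for the non-overlapping groups (22 higher and 5 lower under quantile normalization too) were chosen after seeing the data. The depth behind the values is unknown, so its effect on scarce genes such as Mitf was not measured.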
